A study of Mus musculus with 12 samples.

Results

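The dermal papilla (DP) is the cluster of mesenchymal cells at the base of the hair follicle, and the expression in sorted DP cells of the genes named as orphan or adhesion G protein-coupled receptors was examined here. A gene was included when its symbol was Gpr followed by a number with or without a letter, Gpr165 excepted, or Adgr followed by a letter and a number, and when it was listed at both ages. These rules gave 69 receptors, 48 of the Gpr and 21 of the Adgr series, among 14986 genes listed at both ages. A further 6 symbols of the same kind were listed at 1 age only, among them Gpr39 and Gpr174 at P14 and Adgrg3, Gpr61 and Gpr149 at P16, with 13 to 27 reads each over 6 libraries.

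The libraries came from YFP-positive cells sorted by FACS in 2 rounds from dissociated mouse skin at postnatal day 14 (P14) and 16 (P16), with 3 mice per genotype and age and 12 libraries in all. The double mutant, dMF1/2, carried Cor-cre/+ with Fgfr1 Flox/Flox and Fgfr2 Flox/Flox, so that both Fgf receptor genes were deleted in cells in which the Cor-cre driver had been active, which is the DP after birth. The sample labels call the other group wild type control, whereas the methods give controls that carry Cor-cre/+ with 1 floxed copy of each receptor gene (Fgfr1 Flox/+ and Fgfr2 Flox/+) or floxed genes without Cor-cre. Both groups carried a YFP reporter that Cre switches on, so sorted control cells must have carried Cre too. The study set these ages in mid to late anagen, anagen being the growth phase of the hair cycle, and asked how loss of Fgf signaling in the DP alters its transcriptome before the control follicles regress.

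G protein-coupled receptors cross the membrane several times and pass an outside signal to heterotrimeric G proteins and arrestins. Orphan receptors are those for which no natural ligand is firmly settled, although some of the Gpr genes have since been paired with protons, lipids or metabolites. Adhesion receptors carry a long extracellular part that binds proteins on neighboring cells or in the matrix, and most cut themselves at a GAIN domain, which exposes a tethered peptide that can activate the receptor.

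The libraries held 19302358 to 29860750 reads over the listed genes. The P14 libraries numbered 1 of both genotypes stood apart from the other 10, as Col1a1 took 7.06% of the reads in the control and 9.15% in the dMF1/2 library against 13.1% to 17.7% elsewhere. All 18 DP markers on a fixed list were detected in every library, among them Corin, the source of the Cre driver, with 2736 to 42680.3 normalized reads, while the 13 keratinocyte markers in the tables summed to 350.5 to 979.8 normalized reads, with Krt10 highest at 82.1 to 221 and Epcam at most 8.16. The 6 immune markers in the tables summed to 221 to 520 normalized reads, with Csf1r at 37.7 to 311 and Ptprc at 0 to 10.2. Mural and muscle markers were more abundant, with Acta2 at 4765 to 12477 normalized reads. Fgfr1 was lower in every dMF1/2 library than in every control library of the same age, at 6451 to 7510 against 7855 to 10108 normalized reads at P14 and at 6121 to 7837 against 8369.8 to 12337 at P16, although neither difference passed the test (limma's adjusted p = 0.501 and 0.130). Fgfr2 overlapped between the genotypes at both ages, with log2 fold changes of -0.11 (SE 0.14) at P14 and -0.01 (SE 0.13) at P16 (limma's adjusted p = 0.974 and 0.978). Reads were counted over whole genes, and the deleted exons were not examined separately.

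Values are normalized reads, that is, reads divided by a scaling factor of the library. They are given on 1 scale for all 12 libraries and lie between 0.978 and 1.01 times the values as deposited. Log2 fold changes were fitted with limma on the log2 of normalized reads plus 1, a scale that understates the change of genes with few reads, and are followed by their standard error (SE). A receptor was tested when its mean was at least 10 normalized reads, and it passed when its p-value, adjusted over all genes tested, was under 0.05. Exact permutation tests of 3 mice against 3 cannot give a p below 0.1, so they are not listed for single receptors.

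The receptor repertoire of the sorted cells was dominated by a few genes. Summed over the 69 receptors without scaling for exon length, a library held 37305 to 47054 normalized reads. Of these unscaled reads the adhesion receptors made up 52.8% on average, the other class A orphans 32.1%, and the intracellular or atypical multi-pass proteins 11.5%. The receptors grouped as constitutively active and Gs-coupled or as members of the SREB family (conserved orphans expressed in the brain) contributed 3.05%, the proton, lipid and metabolite sensors 0.465%, and the class C orphans 0.0677%. Per kilobase of exon, the scale on which genes can be compared with each other, Gpr153 ranked at the top with a mean of 3048 normalized reads per kb over the 12 libraries, followed by Adgra2 with 1459. The next in order, Gpr180, Adgrl1, Adgre5, Gpr108, Adgrd1 and Gpr176, lay between 256 and 319 normalized reads per kb. At the other end, 6 receptors, among them Adgre1, Gpr158 and Gpr179, were below 1 normalized read per kb.

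**Figure D1:**
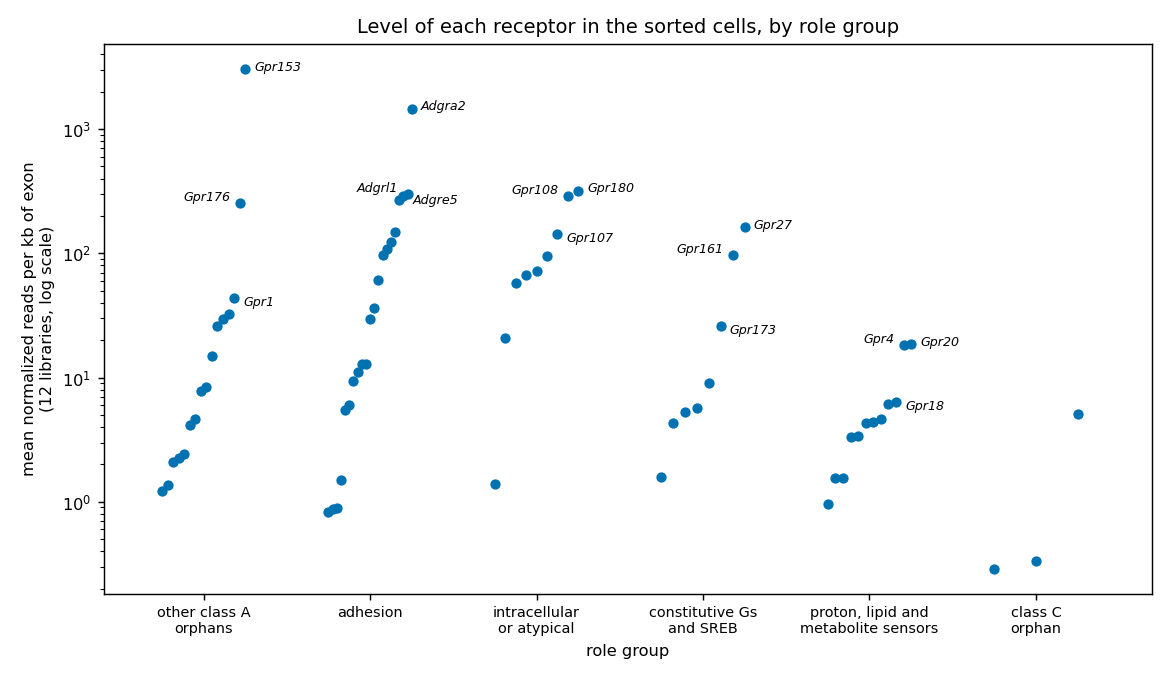
Mean normalized reads per kb of exon over the 12 libraries (vertical axis, log scale) for each of the 69 receptors (points), set out by role group (horizontal axis). Gpr153 at 3048 and Adgra2 at 1459 stand above all others, and the names mark the 3 highest receptors of each group but the class C orphans.

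Gpr153 (ENSMUSG00000042804, chromosome 4 of GRCm38, 152274232 to 152285337) is a class A orphan without a settled ligand. It had 7974, 11809 and 12424 normalized reads in the P14 controls, 8803, 13197 and 13021 in the P14 dMF1/2, 14001, 12803 and 9942 in the P16 controls, and 14300.3, 13681 and 11029.9 in the P16 dMF1/2 libraries. The groups overlapped at both ages, with log2 fold changes of dMF1/2 against control of 0.13 (SE 0.23) at P14 and 0.10 (SE 0.16) at P16 (limma's adjusted p = 0.989 and 0.811). The lowest P14 library of each genotype was the one numbered 1.

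Adgra2 (ENSMUSG00000031486, chromosome 8, 27085583 to 27123436) encodes the adhesion receptor Gpr124, which acts with the membrane-anchored protein Reck as a coactivator of Wnt7 signaling in brain endothelium. Its levels were 7483 to 8269.7 normalized reads in the P14 controls, 8018 to 9316 in the P14 dMF1/2, 7537 to 8488 in the P16 controls and 8357 to 9684 in the P16 dMF1/2 libraries. The groups overlapped at both ages, and the log2 fold changes were 0.17 (SE 0.10, limma's adjusted p = 0.846) and 0.20 (SE 0.10, limma's adjusted p = 0.328). Its partner Reck had 8454 normalized reads on average in P16 controls and 8450.2 in P16 dMF1/2 libraries, a log2 fold change of -0.01 (SE 0.11, limma's adjusted p = 0.981).

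By mean normalized reads not scaled by length, Adgrl1, Adgrd1 and Adgrl2 followed Gpr153 and Adgra2. Adgrl1 encodes latrophilin 1, a receptor for teneurins on neighboring cells, and lay between 2144 and 3122 normalized reads across all 12 libraries, with log2 fold changes of -0.03 (SE 0.12) at P14 and 0.01 (SE 0.11) at P16. Adgrd1, which encodes the Gs-coupled adhesion receptor Gpr133, lay between 1801 and 2851 normalized reads. At P16 it had 1801, 1905 and 2074 in controls and 2218, 2235 and 2067 in dMF1/2 mice, so that the groups touched on this scale, while they were just separate on the deposited scale used for the test (log2 fold change 0.18, SE 0.08, limma's adjusted p = 0.292). Neither gene passed the test in a genotype comparison.

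At P16, 7 of the 55 receptors tested differed between dMF1/2 and control mice, or 12.7%, against 4.32% of all genes tested. Adgrl2, Adgrl3, Adgrv1, Adgrb3 and Gpr176 were higher in dMF1/2 mice, 9.09% against 2.18% of all genes, and Adgre5 and Adgrg2 were lower, 3.64% against 2.14%. With the replicate block 10 receptors passed, against 10.4% of all genes tested, and with DESeq2 9, against 7.49%. At an unadjusted limma p under 0.05 there were 10 receptors, or 18.2%, beside 19.0% of all genes. Of the 7 that passed, all but Gpr176 are adhesion receptors, of which 17 were tested. The median log2 fold change of the 55 receptors was 0.06, beside -0.00 over all genes tested, and that of the adhesion receptors was 0.01. Groups did not overlap for 14 of the 55 receptors, or 25.5%, beside 24.5% of all genes tested, a share near that background.

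**Figure D2:**
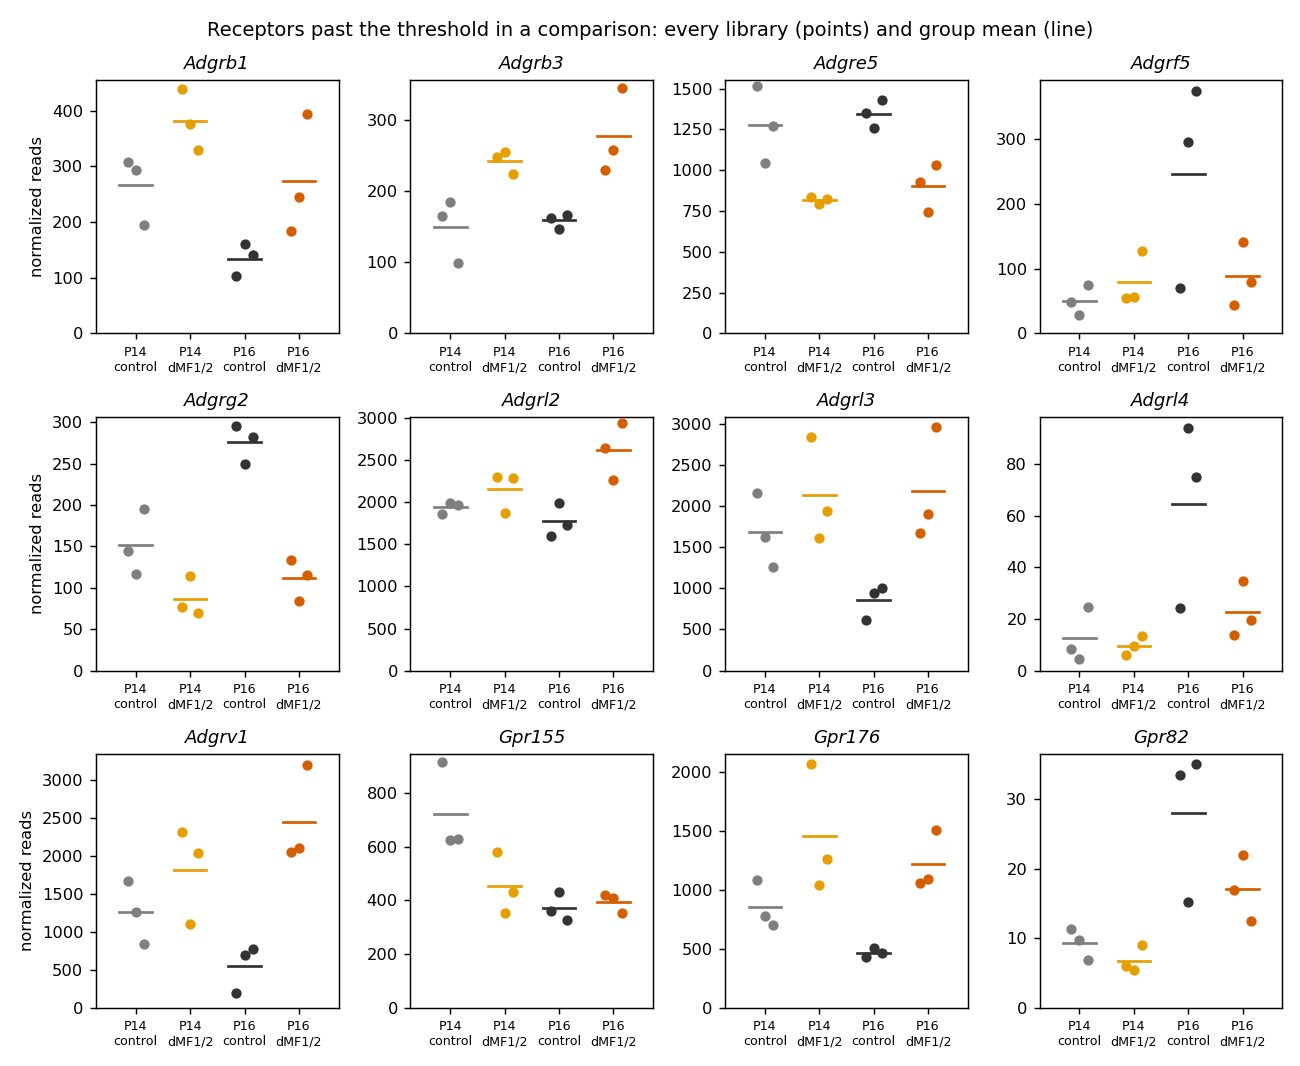
Normalized reads (vertical axes, linear, from 0) of the 12 receptors that passed the test in at least 1 comparison, for each library (points) and as the mean of each group of 3 (lines). At P16, Gpr176, Adgrl3 and Adgrv1 show dMF1/2 libraries above every control library, and Adgrg2 and Adgre5 show them below.

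Gpr176 (ENSMUSG00000040133, chromosome 2, 118277110 to 118373419) encodes an orphan receptor known from the central circadian clock, where it lowers cAMP through the G protein Gz. It had 427, 505 and 466 normalized reads in the P16 controls and 1053, 1094 and 1509 in the P16 dMF1/2 libraries. Every dMF1/2 library held more than any control library, and the control libraries lay close together. The log2 fold change was 1.38 (SE 0.15, limma's adjusted p = 0.0050), or 2.60-fold. This difference kept its call under each of the 15 alternatives run, with adjusted p-values from 1.2e-13 (DESeq2) to 0.0288 and log2 fold changes from 1.21 to 1.47.

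Adgrg2 (ENSMUSG00000031298, chromosome X, 160390690 to 160498070), the adhesion receptor Gpr64, is known from the efferent ducts of the male tract, where it is needed for fluid reabsorption. The P16 controls held 295, 249.8 and 282 normalized reads, and the P16 dMF1/2 libraries held 134, 84.4 and 115. The groups were far apart, with the highest dMF1/2 library below the lowest control library. The log2 fold change was -1.32 (SE 0.18, limma's adjusted p = 0.0097), or 2.49-fold lower in dMF1/2 mice. It too kept its call under each of the 15 alternatives, with adjusted p-values from 3.7e-08 (DESeq2) to 0.0463 and log2 fold changes from -1.47 to -1.13.

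Adgrl3 (ENSMUSG00000037605, chromosome 5, 81020138 to 81825133) encodes latrophilin 3, which binds Flrt proteins and teneurins across cell contacts. The P16 controls held 618, 939 and 1002 normalized reads, against 1679, 1905 and 2968 in the P16 dMF1/2 libraries. The groups did not overlap, although the spread within each was wide. The log2 fold change of 1.35 (SE 0.24, limma's adjusted p = 0.0234), or 2.55-fold, lost its call without control replicate 3 (adjusted p = 0.0553), without dMF1/2 replicate 2 (0.0551) or without dMF1/2 replicate 3 (0.0637). An antisense gene on the opposite strand, Gm16054, overlaps 8.91% of the exon bases of Adgrl3.

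Adgrv1 (ENSMUSG00000069170, chromosome 13, 81095068 to 81633154), an exceptionally large adhesion receptor, links stereocilia of hair cells in the inner ear, and its loss causes a form of Usher syndrome. Its normalized reads were 193, 693 and 771 in the P16 controls and 2053, 2107 and 3194 in the P16 dMF1/2 libraries. Every dMF1/2 library exceeded every control library, and control replicate 1 was far below the other controls. The log2 fold change was 2.36 (SE 0.48, limma's adjusted p = 0.0351), or 5.13-fold. Without control replicate 1 it was 1.72 (adjusted p = 0.0056). The call was lost without control replicate 3 (adjusted p = 0.0544) or without dMF1/2 replicates 1 (0.0833), 2 (0.0837) or 3 (0.128), with log2 fold changes between 2.15 and 2.72.

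Adgrl2 (ENSMUSG00000028184, chromosome 3, 148815583 to 148990555) encodes latrophilin 2, the third of the teneurin and Flrt receptors. It had 1605, 1996 and 1730.4 normalized reads in the P16 controls and 2642, 2261 and 2949 in the P16 dMF1/2 libraries. The groups did not overlap, and the log2 fold change was 0.56 (SE 0.12, limma's adjusted p = 0.0452). This call was lost without control replicate 1 (adjusted p = 0.116) or 3 (0.143) and without dMF1/2 replicate 1 (0.132) or 3 (0.146). It was also lost with the P16 pair numbered 1 left out (0.262).

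Adgrb3 (ENSMUSG00000033569, chromosome 1, 25067476 to 25829707) encodes Bai3, a receptor for C1q-like proteins at synapses. The P16 controls lay close together at 163, 147 and 166 normalized reads, and the P16 dMF1/2 libraries held 229, 257 and 344. All dMF1/2 libraries were higher, with a log2 fold change of 0.79 (SE 0.16, limma's adjusted p = 0.0361). Without any 1 of the libraries other than dMF1/2 replicate 1, the adjusted p lay between 0.0715 (control replicate 1 left out) and 0.0969 (control replicate 3 left out).

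Adgre5 (ENSMUSG00000002885, chromosome 8, 83723251 to 83741326) encodes Cd97, which binds Cd55 and Thy1 on other cells. The P16 controls held 1348, 1261 and 1431 normalized reads and the P16 dMF1/2 libraries 928, 746 and 1032. Here the dMF1/2 libraries were lower without overlap, at a log2 fold change of -0.58 (SE 0.13, limma's adjusted p = 0.0433). Leaving out any 1 of the 6 libraries ended the call, with adjusted p-values between 0.0567 (control replicate 2) and 0.145 (control replicate 3). Exons of Ddx39 on the opposite strand overlap 23.8% of the exon bases of Adgre5, and without knowledge of the strand setting of the counting, reads of the pair cannot be told apart there.

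Some markers of the sorted cells also differed by genotype at P16. Of the 18 DP markers, 4 were higher (Alpl, Alx4, Nog and Fgf10) and 1 was lower (Crabp1) in P16 dMF1/2 mice, with a median log2 fold change of 0.91. Their summed normalized reads were 86397 to 122214 in the P16 controls and 139003 to 188991 in the P16 dMF1/2 libraries, and none of the 18 was at 0. The P16 control library with the lowest sum, replicate 1, was also the lowest P16 control for Adgrl2, Adgrl3, Adgrv1 and Gpr176 among the 5 receptors that were higher in dMF1/2 mice, while for Adgrb3 the lowest was replicate 2. In bulk samples, fewer cells of a type and less RNA per cell cannot be told apart, and the part of cell makeup in the receptor differences was not tested. The 9 mural and muscle markers in the tables summed to 36019 to 44159 normalized reads in the P16 controls and to 21222 to 30299.7 in the P16 dMF1/2 libraries, without overlap, and 1 of the 8 tested was lower (Cspg4). Of 7 Schwann cell markers tested 1 was lower (Erbb3). None of the keratinocyte, melanocyte, endothelial and immune markers tested passed at P16.

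The promoters of the 4 receptors with the largest P16 log2 fold changes among those that passed the test are shown because 3 of these genes were higher in dMF1/2 mice while the fourth, Adgrg2, was lower. RefSeq promoter sequences (build GRCm38.p6) were matched for 50 of the 69 receptors. The 250 bases before the annotated start are written 5′ to 3′ on the strand of the gene, and capitals mark exact matches on either strand to any of 8 motifs. For Adgrl3, which has 3 annotated starts, the RefSeq start farthest upstream was used. The gene coordinates given above are the Ensembl ones deposited with the values, in which Adgrl3 starts farther upstream. This window therefore lies inside Adgrl3 as given there, and the Adgrv1 window overlaps the first bases of its gene for the same reason.
Gpr176, chr2:118373420-118373669, minus strand: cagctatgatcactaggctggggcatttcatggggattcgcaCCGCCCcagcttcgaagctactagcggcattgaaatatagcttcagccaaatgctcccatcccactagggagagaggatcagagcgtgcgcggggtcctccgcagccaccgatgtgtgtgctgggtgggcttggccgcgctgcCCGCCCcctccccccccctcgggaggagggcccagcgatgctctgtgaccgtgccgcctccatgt
Adgrl3, chr5:81020321-81020570, plus strand: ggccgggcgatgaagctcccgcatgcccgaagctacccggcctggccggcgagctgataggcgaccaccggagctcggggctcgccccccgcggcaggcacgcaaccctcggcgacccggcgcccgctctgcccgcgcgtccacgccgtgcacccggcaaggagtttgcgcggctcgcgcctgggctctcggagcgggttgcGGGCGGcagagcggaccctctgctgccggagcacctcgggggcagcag
Adgrv1, chr13:81633145-81633394, minus strand: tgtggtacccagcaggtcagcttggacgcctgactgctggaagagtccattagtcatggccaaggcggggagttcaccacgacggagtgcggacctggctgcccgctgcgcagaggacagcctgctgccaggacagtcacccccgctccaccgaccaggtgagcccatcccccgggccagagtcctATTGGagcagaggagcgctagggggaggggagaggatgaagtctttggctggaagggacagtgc
Adgrg2, chrX:160390440-160390689, plus strand: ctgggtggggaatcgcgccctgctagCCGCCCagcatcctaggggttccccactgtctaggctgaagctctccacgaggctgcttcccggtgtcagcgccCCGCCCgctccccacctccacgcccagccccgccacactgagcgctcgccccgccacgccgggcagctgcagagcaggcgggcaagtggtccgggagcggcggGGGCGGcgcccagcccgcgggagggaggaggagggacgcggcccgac
The motifs searched were the TATA box (TATAAA), the GC box (GGGCGG), the CCAAT box (CCAAT), the E-box (CACGTG), an ETS site (CCGGAAGT), a cAMP response element (TGACGTNA), an AP-1 site (TGANTCA) and the core of the TCF/LEF site (CTTTGA). The GC box was found at 2 positions in Gpr176, at 1 in Adgrl3 and at 3 in Adgrg2, and it occurred in 33% of the 27018 promoters of this length and in 24 of the 50 receptor promoters. Adgrv1 held a CCAAT box instead, a motif found in 34.5% of all promoters. The TCF/LEF core, which marks the end point of Wnt signaling, was in none of these 4 windows. It was in 8 of the 50 receptor promoters, or 16%, and in 14.1% of all promoters. GC content ranged from 64% in Gpr176 to 76.8% in Adgrl3, beside a median of 52% over all promoters and 58.8% over the 50 receptor promoters. These matches are letters in a window and were not tested as binding sites.

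Adgrb1 came close to the threshold at P16 without passing it. The gene (ENSMUSG00000034730, chromosome 15, 74516195 to 74589465) encodes Bai1, which recognizes phosphatidylserine on dying cells and signals through Elmo and Dock proteins to engulf them. It had 102, 160.1 and 141 normalized reads in the P16 controls and 184, 245 and 394 in the P16 dMF1/2 libraries, with no overlap between the groups. The log2 fold change was 0.98 (SE 0.28, limma's adjusted p = 0.0989), and the adjusted p was 0.0186 with the replicate block and 0.00605 with DESeq2.

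The class C orphan Gpr158, a receptor known from neurons, was singled out after its values were seen. It had no read in any of the 6 control libraries and 8.52, 3.23 and 2.24 normalized reads in the P14 dMF1/2 and 2.11, 9.17 and 7.27 in the P16 dMF1/2 libraries. It was below the level tested, a count of 0 in a library allows up to 3 reads there, and no fold is given.

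At P14, none of the 51 receptors tested passed, beside 0.0525% of all genes tested. At an unadjusted limma p under 0.05 there were 7 receptors, or 13.7%, against 7.32% of all genes tested. These were Adgrb1, Adgrb3 and Gpr176, with positive log2 fold changes, and Adgre5, Adgrg2, Gpr155 and Gpr4, with negative ones. With the replicate number as a block, 3 receptors passed, Adgre5 (adjusted p = 0.0322), Gpr155 (0.0171) and Gpr176 (0.0242), against 1.68% of all genes in that fit, DESeq2 called Adgre5 alone (0.0157), against 1.4% of all genes, and edgeR called none. Groups did not overlap for 7 of the 51 receptors, or 13.7%, beside 12.7% of all genes.

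Adgre5 had 1516, 1047 and 1269.9 normalized reads in the P14 controls and 834, 792 and 821 in the P14 dMF1/2 libraries. All dMF1/2 libraries were lower and lay close together, with a log2 fold change of -0.63 (SE 0.14, limma's adjusted p = 0.275), next to -0.58 at P16.

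Adgrb3 held 164, 184 and 98.8 normalized reads in the P14 controls and 247, 255 and 223 in the P14 dMF1/2 libraries, again without overlap. Its log2 fold change was 0.75 (SE 0.23, limma's adjusted p = 0.484), next to 0.79 at P16. Adgrg2 was likewise without overlap at P14, with 144, 116 and 195 normalized reads in controls against 76.7, 114 and 69.5 in dMF1/2 libraries, at a log2 fold change of -0.80 (SE 0.26, limma's adjusted p = 0.511). Adgrb1 had 309, 294 and 196 normalized reads in the P14 controls and 439, 377 and 329.7 in the P14 dMF1/2 libraries, at 0.54 (SE 0.20, limma's adjusted p = 0.595). These 4 genes were those of the 50 receptors tested at both ages that had an unadjusted p under 0.05 and no overlap at each, beside 3.25% of all genes tested at both ages.

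Gpr176 at P14 had 1081, 781 and 703 normalized reads in controls and 2066, 1038 and 1261 in dMF1/2 libraries. The groups overlapped, as dMF1/2 replicate 2 lay below control replicate 1, and within each pair of the same number the dMF1/2 library was higher. The log2 fold change was 0.73 (SE 0.27, limma's adjusted p = 0.597). Adgrl3, Adgrv1 and Adgrl2 overlapped too at P14, with log2 fold changes of 0.34 (SE 0.26), 0.52 (SE 0.34) and 0.15 (SE 0.10).

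Gpr4 (ENSMUSG00000044317) encodes a receptor for protons that is known from endothelium. It had 56.6, 54.4 and 97.8 normalized reads in the P14 controls against 34.1, 30.2 and 30.3 in dMF1/2 libraries, a log2 fold change of -1.06 (SE 0.27, limma's adjusted p = 0.343), while its P16 groups overlapped at -0.25 (SE 0.31). The difference between these values was not past the threshold (0.81, SE 0.43).

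**Figure D3:**
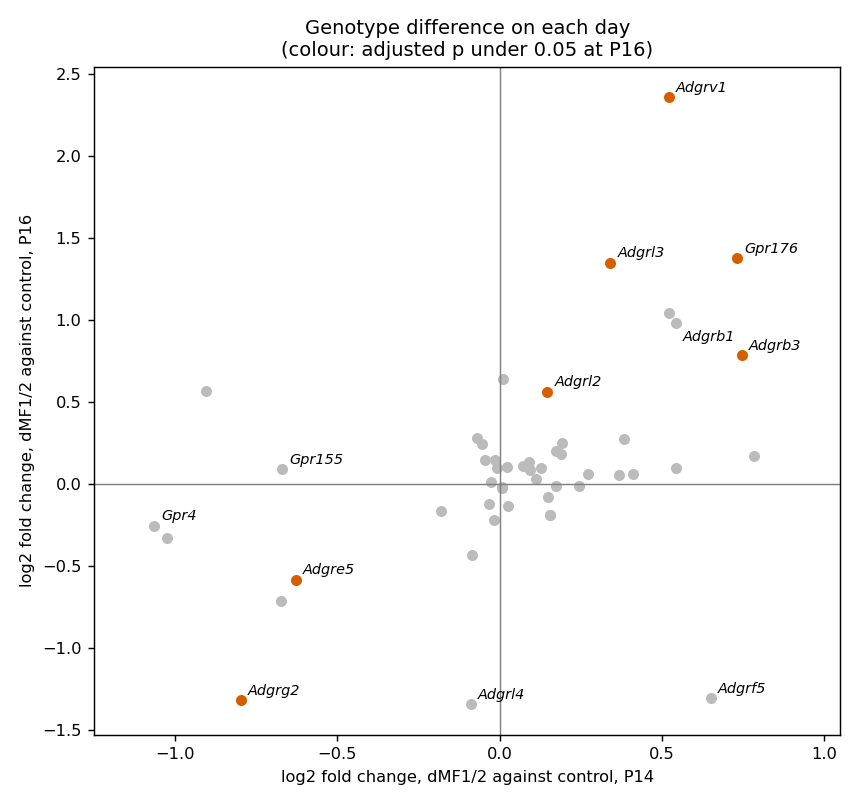
Log2 fold change of dMF1/2 against control at P14 (horizontal axis) and P16 (vertical axis) for the 50 receptors tested at both ages, with those that passed at P16 in color. Adgrv1 at 0.52 and 2.36, Gpr176 at 0.73 and 1.38 and Adgrl3 at 0.34 and 1.35 lie highest, and Adgrg2 at -0.80 and -1.32 lies opposite.

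Summed over all 69 receptors, dMF1/2 libraries held more normalized reads than controls at both ages. The sums were 38539.6 to 41159.7 in the P14 controls and 42499 to 46088 in the P14 dMF1/2 libraries, and 37305 to 40785 against 44262 to 47054 at P16. The adhesion receptors alone summed to 19028 to 20351 in the P16 controls and 22429 to 27242 in the P16 dMF1/2 libraries, and overlapped at P14. These sums weigh abundant receptors most and are given as a description.

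Between P14 and P16, 8 of the 53 receptors tested changed in control mice, or 15.1%, beside 14.5% of all genes tested, a share near that background. Adgrg2, Adgrf5, Adgrl4 and Gpr82 rose, and Adgrl3, Adgrb1, Gpr176 and Gpr155 fell, beside 6.26% of all genes that rose and 8.28% that fell. DESeq2 called 11 receptors, beside 18.0% of all genes. With no filter on low values limma called 9, beside 12.3%, as Gpr34 was then tested and rose (log2 fold change 1.48, SE 0.42, limma's adjusted p = 0.0411). The P16 controls of this comparison are those of the P16 genotype comparison, so the values are not independent and are only set side by side. Of the 18 DP markers 8 fell and none rose in the same controls (median log2 fold change -0.96), and their sum was 145350.1 to 198371 normalized reads at P14 against 86397 to 122214 at P16. Among other marker lists in these controls, 1 of 9 mural and muscle markers (Cspg4), 1 of 3 melanocyte markers (Mitf) and 1 of 7 Schwann cell markers rose. The list medians were -0.08, 0.40 and 0.83. None of the 10 keratinocyte and 5 immune markers tested passed, and the endothelial markers are given further below. The part of any of these markers in the receptor changes was not tested. Only Gpr155 kept its call under all 16 alternatives run. Fitted on the 6 control libraries alone, 3 receptors passed, beside 6.01% of all genes, and 2 passed when the P14 pair numbered 1, which stood apart, was left out, beside 7.08%.

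Gpr155 (ENSMUSG00000041762, chromosome 2, 73341506 to 73386572) encodes a lysosomal membrane protein that senses cholesterol and signals to mTORC1. It had 915, 624 and 629.5 normalized reads in the P14 controls and 361, 429 and 326 in the P16 controls. The ages did not overlap, with a log2 fold change of -0.94 (SE 0.19, limma's adjusted p = 0.0114) and adjusted p-values up to 0.0448 over the alternatives. In dMF1/2 mice it had 579.7, 352 and 432 normalized reads at P14 and 420.3, 407 and 351 at P16, a log2 fold change of -0.18 (SE 0.19, limma's adjusted p = 0.631). At P14 its dMF1/2 libraries lay below every control library (log2 fold change -0.67, SE 0.22, limma's adjusted p = 0.517, and 0.0171 with the block), while at P16 the groups overlapped at 0.09 (SE 0.13). The difference between the 2 changes was 0.76 on the log2 scale (SE 0.27), which did not pass limma's test after adjustment.

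Gpr176 fell in controls from 1081, 781 and 703 to 427, 505 and 466 normalized reads without overlap, at a log2 fold change of -0.85 (SE 0.24, limma's adjusted p = 0.0361). In dMF1/2 mice the change was -0.21 (SE 0.24, limma's adjusted p = 0.654). Left-out libraries ended the call in controls for each of the 6 but P14 control replicate 3, with adjusted p-values from 0.056 (P16 control replicate 2) to 0.132 (P14 control replicate 1).

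Adgrl3 fell from 2165, 1621 and 1258 to 618, 939 and 1002 normalized reads in controls, at -0.97 (SE 0.28, limma's adjusted p = 0.0403), and its log2 fold change in dMF1/2 mice was 0.03 (SE 0.28). Adgrb1 fell from 309, 294 and 196 to 102, 160.1 and 141 normalized reads, at -0.97 (SE 0.27, limma's adjusted p = 0.0358), and its value in dMF1/2 mice was -0.54 (SE 0.27, limma's adjusted p = 0.265). In both genes the control ages did not overlap. The call for Adgrl3 was lost without any 1 control library but P14 replicate 3 (adjusted p from 0.0579 to 0.147), and that for Adgrb1 without P14 control replicate 1 (0.121) or 2 (0.0981) or P16 control replicate 1 (0.13) or 3 (0.0758). Adgrv1, with 1676, 1262 and 835 normalized reads at P14 and 193, 693 and 771 at P16 in controls, had a log2 fold change of -1.36 (SE 0.48) but did not pass (limma's adjusted p = 0.0763).

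Adgrg2 rose in controls from 144, 116 and 195 to 295, 249.8 and 282 normalized reads, again without overlap, at a log2 fold change of 0.89 (SE 0.24, limma's adjusted p = 0.0308). In dMF1/2 mice it went from 76.7, 114 and 69.5 to 134, 84.4 and 115, where the ages overlapped at 0.36 (SE 0.24, limma's adjusted p = 0.398). The call in controls was lost without P14 control replicate 1 (0.0887) or 2 (0.0959) or P16 control replicate 1 (0.0989) or 3 (0.0817). Gpr82, an orphan receptor on chromosome X with few reads, rose from 11.3, 9.79 and 6.92 to 33.6, 15.3 and 35 normalized reads in controls, at 1.42 (SE 0.39, limma's adjusted p = 0.0336). It held 5.97, 5.38 and 8.97 in P14 and 16.9, 22 and 12.5 in P16 dMF1/2 libraries, at 1.21 (SE 0.39, limma's adjusted p = 0.0909). Its call in controls was lost with the block (0.0555) and without any 1 control library but P16 replicate 2 (0.0649 to 0.124). At P14 Gpr82 was below the level tested, and it reached that level over the 12 libraries through its P16 reads. The fit with at least 10 reads in every library left it out.

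**Figure D4:**
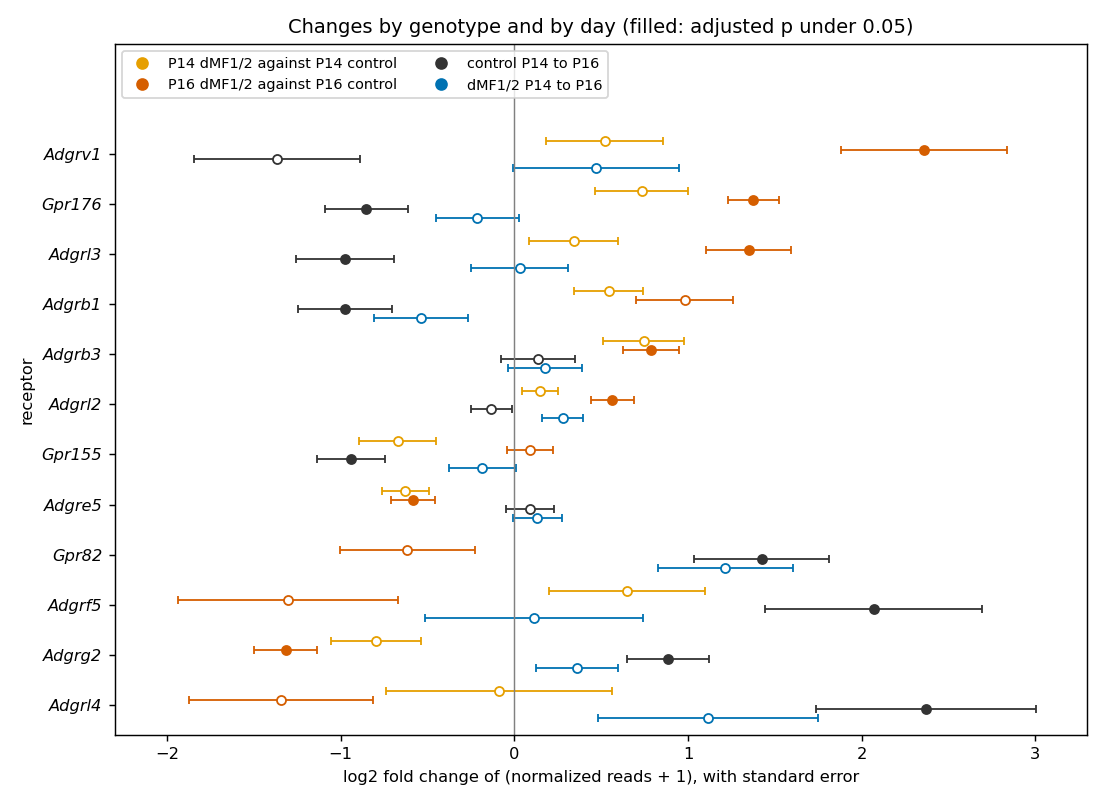
Log2 fold changes (horizontal axis, points) with standard errors (bars) of the 12 receptors that passed in at least 1 comparison, in each genotype comparison and each change between ages, where filled points passed. Gpr176, Adgrl3 and Adgrb1 lie left of 0 for the change in controls and right of 0 for both genotype comparisons, and Adgrg2 lies the other way round.

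In dMF1/2 mice, none of the 53 receptors tested changed from P14 to P16 with limma, beside 5.8% of all genes tested. At an unadjusted p under 0.05 there were 6 (Adgrl2, Gpr1, Gpr137, Gpr137b, Gpr173 and Gpr82), or 11.3% against 22.8% of all genes tested, and edgeR called none, beside 5.72% of all genes. DESeq2, which called 9.44% of all genes, called Gpr173, an SREB orphan, with a log2 fold change of -0.58 (adjusted p = 0.0323), where limma gave -0.56 (SE 0.16, adjusted p = 0.0675). That gene went from 194, 156 and 141 to 112, 116 and 103 normalized reads without overlap.

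The test of whether the change between ages differed by genotype passed for none of the 53 receptors, beside 0.0% of all genes tested, and for none of them with edgeR or DESeq2, which called 0.0% and 0.04% of all genes. At an unadjusted limma p under 0.05 there were 5 receptors, or 9.43% against 4.83% of all genes tested, namely Adgrv1 with a difference of 1.83 (SE 0.68), Gpr155 with 0.76, Adgrl2 with 0.41 (SE 0.17) and Adgrf5 with -1.96 (SE 0.89) on the log2 scale, and Adgrl3, whose log2 fold changes were -0.97 in controls and 0.03 in dMF1/2 mice. A fall in controls that passed and one in dMF1/2 mice that did not are thus not shown to differ for Gpr176 (0.64, SE 0.34).

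Adgrl4 and Adgrf5 rose in controls, where 3 of 10 endothelial markers rose and 1 fell. Adgrl4 (ENSMUSG00000039167, chromosome 3, 151437887 to 151545086) encodes Eltd1, an adhesion receptor of endothelial cells, and Adgrf5 (ENSMUSG00000056492, chromosome 17, 43389466 to 43459557) encodes Gpr116, known from lung surfactant control and from endothelium. Adgrl4 had 8.49, 4.35 and 24.7 normalized reads in the P14 controls and 24.1, 93.8 and 75.1 in the P16 controls, and Adgrf5 had 48.1, 28.3 and 74.1 and then 70.6, 296 and 375. In both genes P16 control replicates 2 and 3 were high and replicate 1 lay within the range of the P14 controls. The log2 fold changes were 2.37 (SE 0.63, limma's adjusted p = 0.0309) and 2.07 (SE 0.63, limma's adjusted p = 0.0478). Without P14 control replicate 1 or 2 or P16 control replicate 2 or 3, the adjusted p lay between 0.086 and 0.0943 for Adgrl4 and between 0.114 and 0.155 for Adgrf5.

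The 10 endothelial markers, all in the tables and none of them at 0 in any library, summed to 912, 1911 and 1751 normalized reads in the P16 controls, to 969.5, 1240.4 and 1288 in the P16 dMF1/2 libraries, and to 1147 to 1597 in the P14 libraries of both genotypes. Of these markers 3 rose (Vwf, Esam and Emcn) and 1 fell (Tek) in controls from P14 to P16. The list median log2 fold change was 1.43. Tek, the highest of the 10 on average, held 371 to 760 normalized reads in P14 controls and 221 to 306 in P16 controls. The sums set this fall against the rises, and they overlapped between the ages in controls. Adgrg1, the adhesion receptor Gpr56, which binds collagen III and transglutaminase 2, was also highest in those 2 libraries, at 85.6 and 65.1 normalized reads in P16 control replicates 2 and 3 against 9.79 to 44 in the others. The part of endothelial RNA in these values was not tested.

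In the P16 genotype comparison, Adgrl4 (24.1, 93.8 and 75.1 normalized reads in controls, 13.7, 34.9 and 19.7 in dMF1/2) and Adgrf5 (70.6, 296 and 375 against 44.4, 141 and 80) lay beside Adgrg2 at the low end, with log2 fold changes of -1.34 (SE 0.53) and -1.30 (SE 0.63). The groups overlapped through control replicate 1, and neither gene passed with limma (adjusted p = 0.217 and 0.322). With the replicate number as a block the limma adjusted p-values were 0.0285 and 0.0352, and DESeq2 called Adgrl4 (adjusted p = 0.0459) and not Adgrf5 (adjusted p = 0.351). None of the 10 endothelial markers passed with limma, and their median log2 fold change was -0.77. The markers did not move as a set in P16 control replicate 1, where Kdr was at 90.4 and Tek at 221 normalized reads, while Vwf at 133 and Esam at 185 were above every P14 and every dMF1/2 library. Without that library the log2 fold changes were -1.93 (adjusted p = 0.0412) and -2.04 (0.0422), and over all 15 alternatives the adjusted p ranged from 0.0285 to 0.472 and from 0.0352 to 0.634.

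**Figure D5:**
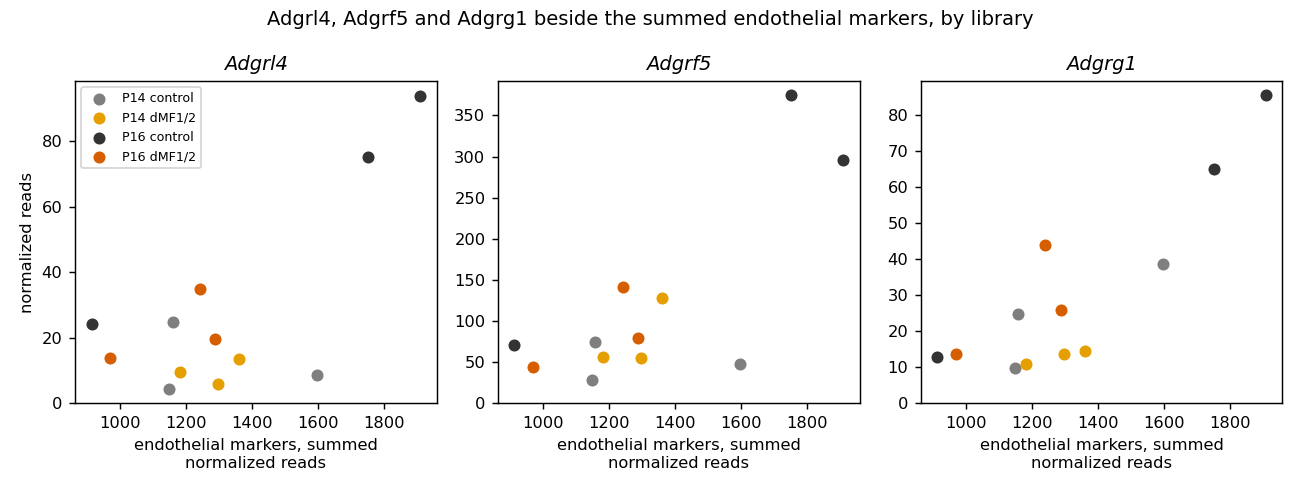
Normalized reads of Adgrl4, Adgrf5 and Adgrg1 (vertical axes, from 0) against the summed normalized reads of 10 endothelial markers (horizontal axes) in each library (points, colored by group). P16 control replicates 2 and 3, with 1911 and 1751 marker reads, hold the highest values of all 3 receptors.

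Partners of the receptors were followed on a list of 34 ligands and binding proteins, of which 27 were tested. In P16 dMF1/2 mice 1 was higher and 2 were lower, beside 4.32% of all genes that passed. Unc5c, a netrin receptor that joins latrophilins and Flrt proteins in a complex, was higher (log2 fold change 2.19, SE 0.27, limma's adjusted p = 0.0064). Its paralog Unc5b was lower (-1.92, SE 0.20, limma's adjusted p = 0.0050), as was the latrophilin ligand Tenm3 (-0.47, SE 0.10, limma's adjusted p = 0.0419). The median log2 fold change of the 27 was -0.04. In controls from P14 to P16, 4 rose (Unc5b, Tenm3, Elmo1 and Dock1) and 6 fell (among them Unc5c, Flrt1, Flrt3 and Col4a2), beside 6.26% of all genes that rose and 8.28% that fell. At P14 none of the 27 passed by genotype. Cd55 and Thy1, the ligands of Adgre5, had P16 log2 fold changes of -0.04 (SE 0.16) and -0.42 (SE 0.15, limma's adjusted p = 0.189).

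The machinery downstream of the receptors was followed on 4 further lists, to be read beside the 4.32% of all genes that passed at P16. Of 25 G protein subunits tested, Gnb5 (log2 fold change 0.62, SE 0.12) and Gng7 (0.56, SE 0.11) were higher in P16 dMF1/2 mice, with limma's adjusted p = 0.0307 and 0.0309. Of 13 RGS proteins, which shorten the active state of G proteins, Rgs6 was higher (1.10, SE 0.25, limma's adjusted p = 0.0490) and Rgs10 lower (-0.76, SE 0.16, limma's adjusted p = 0.0424). Gnb5 is the obligate partner of Rgs6. Of 12 receptor kinases and arrestins, Adrbk2, which encodes a kinase that marks active receptors for arrestin, was higher (1.23, SE 0.26, limma's adjusted p = 0.0410), and none of 8 adenylyl cyclases passed. None of these 4 lists held a gene that differed by genotype at P14.

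The intracellular and atypical proteins lay in a narrow range at P16. All 9 were tested, none passed, and their log2 fold changes lay between -0.50 and 0.11. Gpr107 and Gpr108, which reside in the Golgi, held 1707 to 2047 and 767 to 951 normalized reads across all 12 libraries. Among the 8 constitutively active or SREB receptors, all tested at P16 without a call, Gpr161, a ciliary receptor that restrains Hedgehog signaling, held 567 to 761 normalized reads. Of the 12 proton, lipid and metabolite sensors 8 were tested at P16 without a call.

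The 14 receptors not tested at P16 had a mean below 10 normalized reads there. Among them were Adgre1, Adgre4, Adgrf1, Adgrf4, Gpr50, Gpr84, Gpr158, Gpr160, Gpr171 and Gpr179, and no single value of the 14 exceeded 20.5 normalized reads in the 12 libraries. When limma was fitted with no filter on low values, none of the 14 passed, beside 3.87% of all genes, and 4 of them (Adgrf1, Gpr50, Gpr84 and Gpr158) had an unadjusted p under 0.05, beside 17.8% of all genes. DESeq2 gave an adjusted p for 8 of the 14, and none of the 8 passed. Adgre1, the macrophage marker F4/80, did not exceed 9.69 normalized reads. Adgrf1, an adhesion receptor singled out after its values were seen, had 4.72 to 16.3 and 9.01 to 11.2 normalized reads in the P14 and P16 controls and 1.08 to 2.56 and 0.92 to 4.22 in the dMF1/2 libraries of these ages, with no overlap at either age. Without the filter its log2 fold changes were -1.74 (SE 0.60) at P14 and -1.65 (SE 0.49) at P16, and neither passed (limma's adjusted p = 0.554 and 0.113, DESeq2's adjusted p = 0.549 and 0.201).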

How the data were processed

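Total RNA of YFP-positive DP cells was rRNA-depleted and sequenced as single reads from NEBNext Ultra Directional libraries, 3 mice per genotype and age. The authors trimmed reads with Trimmomatic, aligned them to mm10 with Tophat version 2, counted them over Ensembl GRCm38 genes with HTSeq-count and divided the counts by DESeq2 size factors, separately for each age. The strand setting of the counting is not given in the sources used here. The deposited values are thus a signal in normalized reads, and multiplying by the recovered factor gave whole read counts within 0.01 for all values. The authors' log2 fold changes, test scores and standard errors, and p-values in the deposited tables were not used.

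Genotypes were compared within each age with limma 3.58.1 (R 4.3.3) on log2 of the deposited value plus 1, keeping genes whose mean reached 10, with Benjamini-Hochberg adjustment over all genes tested. Changes between ages and their difference by genotype were fitted over the 12 libraries on recovered reads of the 14986 shared genes, rescaled jointly by the median of ratios. Alternatives were edgeR 4.0.16, DESeq2 1.42.0 on the recovered reads, TMM scaling, pseudocounts of 0.1 and 10, no filter, at least 10 reads in every library, a replicate block, and leaving out libraries. Count models had been planned as alternatives only, since the tables hold no raw counts. Within an age, the deviations of same-numbered libraries from their group means correlated in every pair (r = 0.573, 0.378 and 0.288 at P14, and 0.266, 0.283 and 0.319 at P16). The numbers were taken to pair the libraries within an age in the replicate block alone. The reported fits did not use this pairing. With it, 3 receptors in place of 0 passed by genotype at P14, and 10 in place of 7 at P16. Across ages r lay between -0.162 and 0.208.

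The receptors and gene lists were chosen with earlier results of these data known. Named with values were receptors that passed in a comparison, those with an unadjusted p under 0.05 and no overlap at both ages, the 5 with the highest mean, the 3 largest P16 changes that did not pass, and list genes that passed in a genotype comparison. Some genes that these rules select are not reported here. Receptors named otherwise were chosen after their values were seen. Depth was 19302358 to 29860750 reads per library.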

Additional observations from a re-analysis of the deposited data

How the results depend on the processing

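In P14 dMF1/2 against control mice, where no receptor passed, DESeq2 called 1 and the replicate block 3, and no left-out library gave a call. At P16 the 7 calls were 9 with DESeq2 and 10 with the replicate block, and leaving out 1 library gave 2 to 6, among which 2 to 5 of the 7 were kept. The P16 pair numbered 1 left out, a fit not planned beforehand, gave 5, beside 344 of 13457 genes, and kept 4 of the 7. Adgrb3, Adgre5 and Adgrl2 lost their calls there (limma's adjusted p = 0.0684, 0.18 and 0.262). For the change between ages in controls, with 8 calls, leaving out 1 library gave 1 to 8, among which 1 to 7 of the 8 were kept. The 6 control libraries alone gave 3, and the pair numbered 1 of P14 left out, chosen after seeing the data, gave 2. With DESeq2 there were 11, among them Gpr37, Gpr45 and Gpr34. In dMF1/2 mice, DESeq2 gave 1, leaving out 1 library 0 or 1, and the P14 pair numbered 1 left out 1. The test of the difference between the changes gave 0 under every alternative run. Pairing by replicate ended the call of Gpr82 in controls (adjusted p = 0.0555) and changed no other call beyond those given. The receptors that passed, and the largest P16 changes that did not, changed direction under none of the alternatives run for them. Other named receptors, and the partner, machinery and marker genes, were not followed gene by gene. Receptors with a mean under 10 normalized reads were left out of the limma fits with the filter, and dropping it added the call of Gpr34 in controls (9 calls in place of 8) and no other. The causes of lost calls were not tested.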

Other observations

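Among related receptors outside the naming rule, Celsr1, an adhesion receptor that aligns hair follicles through planar cell polarity, had 637, 460 and 348 normalized reads in the P14 controls, 127, 227 and 276 in the P16 controls and 511, 254 and 477 in the P16 dMF1/2 libraries. The P16 groups overlapped (log2 fold change 0.99, SE 0.34, limma's adjusted p = 0.158), and the change between ages in controls, where the ages did not overlap, did not pass either (-1.22, SE 0.38, limma's adjusted p = 0.0512). Gprc5b, a class C orphan, had 1066 to 1154 normalized reads in the P16 controls and 1257 to 1408 in the P16 dMF1/2 libraries, without overlap and without passing (log2 fold change 0.26, limma's adjusted p = 0.118).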
